A study of Mus musculus with 5 samples.

Results

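The Eps8 family was examined in RNA sequencing data from differentiated primary mouse myoblasts. Its 4 members, Eps8, Eps8l1, Eps8l2 and Eps8l3, were taken by name from the 54232 genes of the table, with identifiers paired to symbols by GENCODE release M21 on GRCm38. The family was selected on the Eps8l1 values of these same samples, which were known to be low in one genotype, so that difference is described here without a test, and the 3 paralogs were added by family name. WT myoblasts (n = 3) carried unmodified Elmo2, and Elmo2EID/EID myoblasts (n = 2) carried on both alleles a point mutation in the ELMO inhibitory domain. The knock-in is constitutive, so every cell of the mice carried it. ELMO2 is a scaffold that binds the Rac activator DOCK1, and the mutation was made to favour its open conformation. The comparison asks which genes differ in RNA level between the genotypes. All cells came from the leg muscles of young adult mice on a mixed C57BL6 and 129SV background, were enriched with satellite cell magnetic beads, and were kept in differentiation medium for 72 h. The labels do not say whether each sample came from its own mouse, so p-values measure the spread between these samples only.

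EPS8, the epidermal growth factor receptor kinase substrate 8, is an actin regulator. Together with ABI1 and SOS1 it forms a complex that activates Rac, with ABI1 it caps the barbed ends of actin filaments, and with BAIAP2 (IRSp53) it bundles filaments in protrusions. Its paralogs EPS8L1, EPS8L2 and EPS8L3 share its general layout, a phosphotyrosine-binding domain followed by an SH3 domain, and are best known from epithelia and from the sensory hair cells of the inner ear. In myoblasts, remodelling of actin at the contact between cells is part of fusion.

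The deposited values are normalized counts, that is, uniquely mapped reads per gene divided by a size factor for each sample. The reads behind them could be recovered, with totals of 35021856 to 49381544 per sample. The floor was set at 3 reads, which equal 2.65 to 3.73 normalized counts depending on the sample. All 10 skeletal muscle markers, Myod1, Myog, Des and Mymk among them, were above this floor in every sample, with summed levels of 1661400 to 1875780 normalized counts in WT against 1595750 to 1771180. Of these 10, limma, edgeR and DESeq2 each called 0, and 2 had an unadjusted p under 0.05 in limma. They were Myf5, with a higher mean in Elmo2EID/EID samples (3237 in WT and 5203), and Myod1, with a lower one (19202.5 and 17180). Of the 39 markers of muscle and of 5 other cell types that were tested, limma called 0, as did edgeR, while DESeq2 called 5 and 14 had an unadjusted p under 0.05. Over all genes tested, limma called 2.23%, edgeR on the recovered reads 2.25% and DESeq2 5.34%, and 15.2% had an unadjusted p under 0.05 in limma. Schwann cell markers summed to 16081 to 16998 in WT and 15506 to 15912 in Elmo2EID/EID samples. In a bulk sample, fewer cells of a type and less RNA per cell cannot be told apart.

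Eps8l1 (ENSMUSG00000006154, plus strand, chr7:4460674-4480487) has 14 annotated transcripts, 7 of them protein coding. The sequence upstream of its first start is shown because this is the member that chose the family. It runs from chr7:4460447-4460673 on the plus strand of GRCm38 (RefSeq, GRCm38.p6) and ends 1 base before the first annotated transcript. The E-box, a general motif of basic helix-loop-helix factors, is in capitals, and whether any factor binds it was not tested.
Eps8l1 upstream: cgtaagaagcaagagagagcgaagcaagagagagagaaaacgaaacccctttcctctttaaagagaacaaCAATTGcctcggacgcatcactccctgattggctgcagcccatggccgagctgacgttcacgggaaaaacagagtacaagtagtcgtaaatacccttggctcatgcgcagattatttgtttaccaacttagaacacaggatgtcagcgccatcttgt
In the 250 bases before the RefSeq start, of which these are the first 227, the E-box (CANNTG, which reads the same on both strands) occurred 1 time, and 66.2% of all 32851 such windows held it. The GC box (GGGCGG, either strand) occurred 1 time, downstream of the bases shown, against 32.7% of windows with at least 1, and the TATA box (TATAAA, either strand) did not occur, against 12.4%. The same 250 bases had 14 CG dinucleotides, more than 70.6% of the windows. RefSeq lists 2 more starts inside the gene, with windows at chr7:4464485-4464734 and chr7:4464599-4464848. Counts per gene do not tell which start was in use. No promoter entry was matched for Eps8, and Eps8l2 and Eps8l3 had 1 each.

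Reads of 50 bases were counted only if they aligned to 1 place, so the likeness of the paralogs bears on their counts. The coding sequences of the 4 members, 1800 to 2463 bases long, were 65.3% to 67.8% identical over aligned bases in the 6 pairs, and Eps8l1 shared at most 14 bases in a row with any paralog. The closest ungapped stretches of 50 bases between Eps8l1 and the other expressed members are given here, with bases that differ in capitals. Those of Eps8l1 and Eps8 joined exons 18 and 19 of 20 (ends at chr7:4478286-4478639, plus strand) and exons 20 and 21 of 22 (chr6:137482261-137483570, minus strand), and differed at 14 positions. Those of Eps8l1 and Eps8l2 joined exons 18 and 19 of 20 (chr7:4478274-4478627, plus strand) and exons 19 and 20 of 21 (chr7:141361720-141361856, plus strand), and differed at 12.
Eps8l1, against Eps8: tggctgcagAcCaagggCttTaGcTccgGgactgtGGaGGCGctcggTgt
Eps8, against Eps8l1: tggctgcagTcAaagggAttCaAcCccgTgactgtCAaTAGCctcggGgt
Eps8l1, against Eps8l2: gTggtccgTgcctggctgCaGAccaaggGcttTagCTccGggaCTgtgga
Eps8l2, against Eps8l1: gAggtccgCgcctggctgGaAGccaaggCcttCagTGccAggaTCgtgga
Of the 6352 distinct words of 50 bases in Eps8l1 transcripts, 0 occurred in a transcript of another gene on the same strand and 15 on the opposite strand, in the antisense gene Gm15494. That gene had 1.12 normalized counts in WT replicate 2 and was listed at 0 in the other 4 samples. No word of one member occurred in a transcript of another member.

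Eps8l1, whose product forms actin regulatory complexes like those of EPS8, had 333.1, 356.7 and 222.5 normalized counts in WT replicates 1, 2 and 3, against 8.94 and 5.38 in Elmo2EID/EID replicates 1 and 2. Every Elmo2EID/EID value was far under every WT value, and WT replicate 3 was the lowest of its group. The values rested on 377, 318 and 179 reads in WT and on 10 and 6 reads in Elmo2EID/EID samples. Exact Poisson 95% intervals, which cover counting error only, were 4.29 to 16.4 and 1.97 to 11.7 normalized counts in these last samples, while that of the lowest WT sample was 191.1 to 257.6. Group means were 304.1 ± 71.6 (SD, n = 3) and 7.16 ± 2.52 (SD, n = 2), a 42.5-fold lower mean, and the log2 difference of normalized count + 1 was -5.23 (standard error 0.30). The gene was above the floor in both Elmo2EID/EID samples, though the counting interval of replicate 2 reaches below it. This contrast chose the gene, so these values describe it and no p is given. Leaving out each sample in turn gave log2 differences from -5.55 to -4.91.

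Markers of epithelia, the tissue in which EPS8L1 is best known, had a lower summed level in the same samples. Over 10 genes it was 648.3 to 993.2 normalized counts in WT and 364.0 to 549.5 in Elmo2EID/EID samples. The defining markers Epcam, Krt5, Krt14, Esrp1 and Grhl2 were at or under 3 reads in all 5 samples, 2 of them (Krt5 and Esrp1) listed at 0 throughout. The sum came from Cldn4, Krt18, Krt19, Cdh1 and Krt8, of which limma called 0, edgeR 0 and DESeq2 2 (Cldn4 and Krt18), with 2 at an unadjusted p under 0.05. Those 5 did not all go the same way, as Cdh1 (means of 80.5 and 79.7) and Krt19 (97.4 and 112.4) overlapped between the groups, and so did Krt8 at no more than 21.1 normalized counts. The sum of 6 fibro-adipogenic markers was 7394 to 10014 in WT against 4019 to 5719, and most of it was the collagen gene Col3a1, with means of 7812 and 4285. Pdgfra (120.0 to 758.1 against 275.5 to 542.4) and Ly6a (40.4 to 213.8 against 90.3 to 225.0) overlapped between the groups, Dcn had 1.77 to 4.97 in WT against 8.05 and 17.9, and Dpt and Lum had no more than 7.17 normalized counts in any sample. Limma called 0 of the 5 tested, edgeR 0 and DESeq2 1, with 2 at an unadjusted p under 0.05. The part of epithelial or fibro-adipogenic cells in the Eps8l1 difference was not tested.

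**Figure D1:**
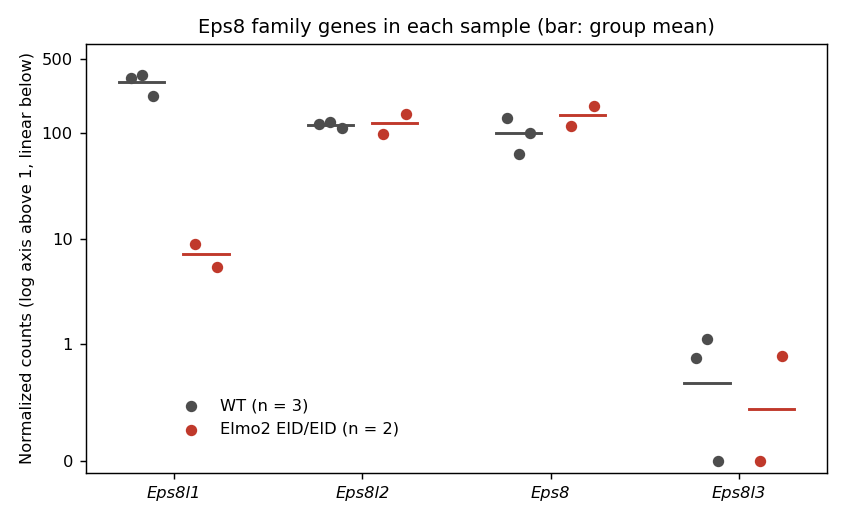
Normalized counts (log axis above 1, linear below) of the 4 Eps8 family genes in each WT (grey, n = 3) and Elmo2EID/EID sample (red, n = 2), with bars at the group means. Eps8l1 lies at 222.5 to 356.7 in WT and at 5.38 and 8.94 in Elmo2EID/EID samples, while the groups overlap for the other 3 genes.

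Eps8 (ENSMUSG00000015766, minus strand, chr6:137477245-137654876), the founding member, had 140.5, 62.8 and 99.4 normalized counts in WT against 117.2 and 181.1 in Elmo2EID/EID samples. The groups overlapped, with the highest value in Elmo2EID/EID replicate 2 and the lowest in WT replicate 2. Means were 100.9 ± 38.9 (SD, n = 3) and 149.1 ± 45.2 (SD, n = 2), a log2 difference of 0.60 (standard error 0.36) that did not pass (limma's adjusted p = 0.493, after Benjamini and Hochberg, over 18156 genes). Its 95% interval ran from -0.25 to 1.45, or 0.842-fold to 2.73-fold. These samples do not tell a rise or fall within that range from no difference. Without WT replicate 2 the log2 difference was 0.30, and without Elmo2EID/EID replicate 2 it was 0.29, while without WT replicate 1 or Elmo2EID/EID replicate 1 it was 0.87 and 0.91. The sum of 8 endothelial markers was also lowest in WT replicate 2 (215.4 normalized counts, against 918.0 and 928.6 in WT replicates 1 and 3) and highest in Elmo2EID/EID replicate 2 (3580, against 2321 in replicate 1). Of these 8 genes, 7 were above the floor in every sample, and limma called 0, edgeR 0 and DESeq2 2, with 6 at an unadjusted p under 0.05. The part of endothelial cells in the Eps8 values was not tested.

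Eps8l2 (ENSMUSG00000025504, plus strand, chr7:141338880-141363020), a component of hair cell stereocilia in the inner ear, had 121.9, 126.8 and 110.6 normalized counts in WT against 97.5 and 152.4 in Elmo2EID/EID samples. The WT samples lay between the pair of Elmo2EID/EID values. Means were 119.8 ± 8.27 (SD, n = 3) and 124.9 ± 38.8 (SD, n = 2), a log2 difference of 0.03 (standard error 0.22) with an adjusted p of 0.968 in limma. The 95% interval of -0.49 to 0.55 spans 0.711-fold to 1.46-fold. Leaving out samples turned the sign, with log2 differences from -0.29 (without Elmo2EID/EID replicate 2) to 0.35 (without Elmo2EID/EID replicate 1).

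Eps8l3 (ENSMUSG00000040600, plus strand, chr3:107877229-107892900), the least studied paralog, had 0 or 1 read in each of the 5 samples and was not tested. Every sample was thus under the floor, and the exact Poisson 95% intervals reach 3.69 reads for a count of 0 and 5.57 for a count of 1. The antisense gene 4933431E20Rik overlaps it on the opposite strand and had 199.4 to 277.4 normalized counts. Of the 2318 words of 50 bases in Eps8l3 transcripts, 644 occur on the opposite strand in transcripts of that gene, and the counting was by strand.

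Neither Eps8 nor Eps8l2 passed the test in either direction, so a paralog moving opposite to Eps8l1 was not detected. Of all genes tested, limma called 1.09% higher and 1.14% lower in Elmo2EID/EID myoblasts. For Eps8 and Eps8l2, called by none of the 3 tools, adjusted p-values over all alternatives ran from 0.385 to 0.875 and from 0.519 to 0.987.

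Levels of different genes were compared per length, as normalized counts per kb of exon. In WT myoblasts Eps8l1 was the highest member, at 50.4 ± 11.9 per kb (SD, n = 3), followed by Eps8l2 at 22.3 ± 1.54, Eps8 at 8.17 ± 3.14 and Eps8l3 at 0.294 ± 0.260. The ranges of the WT samples did not overlap between neighbours in this order (36.9 to 59.1, 20.6 to 23.6, 5.08 to 11.4 and 0 to 0.494). In Elmo2EID/EID myoblasts Eps8l2 led at 23.2 ± 7.22 per kb (SD, n = 2), followed by Eps8 at 12.1 ± 3.66, Eps8l1 at 1.19 ± 0.418 and Eps8l3 at 0.197 ± 0.279, again with no overlap between neighbours. The order of Eps8l1 and Eps8l3 there rests on 10 and 6 reads against 0 and 1, and Eps8l3 was under the floor. In replicate 2 their Poisson intervals, 1.97 to 11.7 and 0.0227 to 4.99 normalized counts, overlapped. Eps8l1 was thus the highest member in WT and ranked under Eps8l2 and Eps8 in Elmo2EID/EID myoblasts. Among all genes tested, its level per kb was above 43.3% of genes in WT and above 3.90% in Elmo2EID/EID myoblasts, while Eps8l2 stood at 33.5% and 33.7% and Eps8 at 21.7% and 25.9%.

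With the length of the longest protein-coding transcript in place of all exons, the WT order stayed, at 78.6, 37.5, 22.1 and 0.294 per kb. In Elmo2EID/EID myoblasts the ranges of Eps8l2 (30.5 to 47.8) and Eps8 (25.7 to 39.7) then overlapped. Eps8l2 remained above Eps8 within each of these samples with either length, but the gap was smaller, as Eps8 has 12355 bases of annotated exon and a longest coding transcript of 4567.

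Added up per kb, the family had 89.6, 88.2 and 65.5 in WT, against 29.1 and 44.3 in Elmo2EID/EID samples. Eps8l1 made up 61.6% ± 5.34 of that sum in WT (SD, n = 3) and 3.55% ± 2.18 in Elmo2EID/EID samples (SD, n = 2). The mean of Eps8l1 was lower by 49.2 per kb (a difference of -49.2), whereas that of Eps8 was higher by 3.90 and that of Eps8l2 by 0.962. Without Eps8l1 the sums were 34.4, 29.2 and 28.6 in WT against 27.6 and 43.4, which overlap. Both Elmo2EID/EID samples were under the lowest WT total of the whole family.

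**Figure D2:**
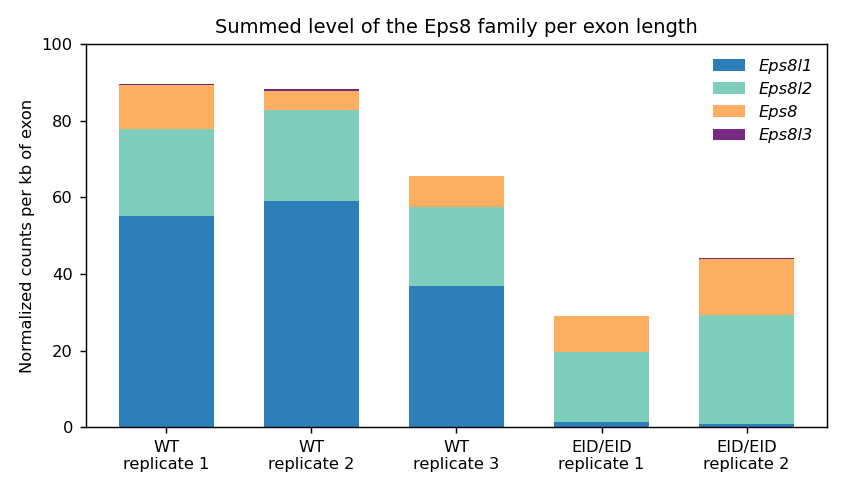
Stacked normalized counts per kb of exon of the 4 family genes (colours) in each of the 5 samples. The full bars reach 65.5 to 89.6 in WT and 29.1 and 44.3 in Elmo2EID/EID samples, and the Eps8l1 section shrinks from 36.9 to 59.1 in WT to 0.891 and 1.48.

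The partners of EPS8 and other regulators of actin filament ends were examined in 5 lists of 57 genes, of which 54 were tested. One gene, Egfr, passed by limma (1.85% of the 54, against the 2.23% of all genes), and it was lower in Elmo2EID/EID myoblasts. The median log2 difference of the 54 genes was -0.02, against 0.01 over all genes. EdgeR also called 1 gene, Egfr, and DESeq2 called 4 (7.41%, against 5.34% of all genes), Egfr, Gsn and Vasp lower and Lcp1 higher.

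Egfr (ENSMUSG00000020122, chr11:16752203-16918158) encodes the epidermal growth factor receptor, the kinase for which EPS8 was first isolated as a substrate. It had 722.7, 631.5 and 559.4 normalized counts in WT against 371.1 and 339.8 in Elmo2EID/EID samples. Both Elmo2EID/EID values were under every WT value. Means were 637.9 ± 81.9 (SD, n = 3) and 355.5 ± 22.2 (SD, n = 2), a ratio of 0.557 and a log2 difference of -0.84 (standard error 0.13) with a limma adjusted p of 0.0290. The call was lost without WT replicate 1 (adjusted p = 0.0983), WT replicate 2 (0.0858), Elmo2EID/EID replicate 1 (0.148) or Elmo2EID/EID replicate 2 (0.267), with no filter on low values (0.0978) and without the mean-variance trend (0.126), all from limma. Leaving out samples gave log2 differences of -0.93 to -0.74. Adjusted p-values of Egfr over all alternatives ran from 1.16e-05 (DESeq2) to 0.267.

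Among the other partners on the Rac branch, 6 of 7 did not pass. Rac1, the GTPase activated by the EPS8, ABI1 and SOS1 complex, had the most normalized counts of this list, 9951 ± 506 (SD, n = 3) and 9955 ± 39.4 (SD, n = 2), with a log2 difference of 0.00 (95% interval -0.15 to 0.16). Abi1, Sos1, Sos2, Grb2 and Pik3r1 had log2 differences of 0.07, 0.03, 0.11, -0.10 and 0.27. Those of the Rab5 branch, where EPS8 binds the Rab5 GTPase-activating protein USP6NL, ranged from -0.03 to 0.04 over Usp6nl, Rab5a, Rab5b and Rab5c. Limma, edgeR and DESeq2 called 0 of these 4, and 0 had an unadjusted p under 0.05. Rab5a had both the most normalized counts in the list, 5930 ± 158 in WT and 6115 ± 19.3 in Elmo2EID/EID samples, and its largest log2 difference, 0.04.

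Of 10 partners in protrusions and stereocilia, 8 were tested and limma called 0, as did edgeR and DESeq2, with 2 at an unadjusted p under 0.05. Cdc42, the GTPase that recruits BAIAP2, had 19048 ± 277 and 20638 ± 715 normalized counts. Myo15, a stereocilia motor that carries EPS8 to stereocilia tips, had the largest log2 difference, 0.87 (standard error 0.67), from no more than 8.07 normalized counts in any sample. Baiap2 itself had a log2 difference of -0.50 (adjusted p = 0.290 by limma).

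For the 20 tested cappers of barbed ends and inhibitors of capping, limma called 0, edgeR 0 and DESeq2 1 (Gsn), with 3 at an unadjusted p under 0.05, and the median log2 difference was 0.00. The actin-binding protein gene Svil had the most normalized counts, 17432 ± 1688 in WT and 20211 ± 1108 in Elmo2EID/EID samples. Add2, a beta-adducin that caps filaments in red cells and neurons, had the largest log2 difference, 1.67 (standard error 0.40, adjusted p = 0.0995 by limma), from 4.75 ± 1.36 (SD, n = 3) to 17.0 ± 1.30 normalized counts (SD, n = 2). The 15 bundlers and elongators had a median of -0.09, and limma called 0, edgeR 0 and DESeq2 2 (Lcp1 and Vasp), with 3 at an unadjusted p under 0.05. Actn3, the fast fibre alpha-actinin, had the most normalized counts in WT, 95942 ± 4379, with 90334 ± 2386 in Elmo2EID/EID samples, where the alpha-actinin Actn2 had more (94169 ± 3208 and 93482 ± 3600). Lcp1, the plastin of blood cells, had 12.4, 15.7 and 19.9 normalized counts in WT against 38.5 and 74.4 in Elmo2EID/EID samples, a log2 difference of 1.71 (standard error 0.38, adjusted p = 0.0825 by limma). The sum of 6 blood markers was 112 to 178 in WT against 277 and 130 in Elmo2EID/EID replicates 1 and 2, with the defining marker Ptprc at or under 3 reads in every sample. Cd68, of the same list, had 20.3, 19.1 and 17.4 against 34.0 and 35.0, without overlap, and the other 5 overlapped between the groups. Limma called 0 of the 5 blood markers tested, edgeR 0 and DESeq2 0, with 1 (Cd68) at an unadjusted p under 0.05, and the part of blood cells in the Lcp1 values was not tested.

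**Figure D3:**
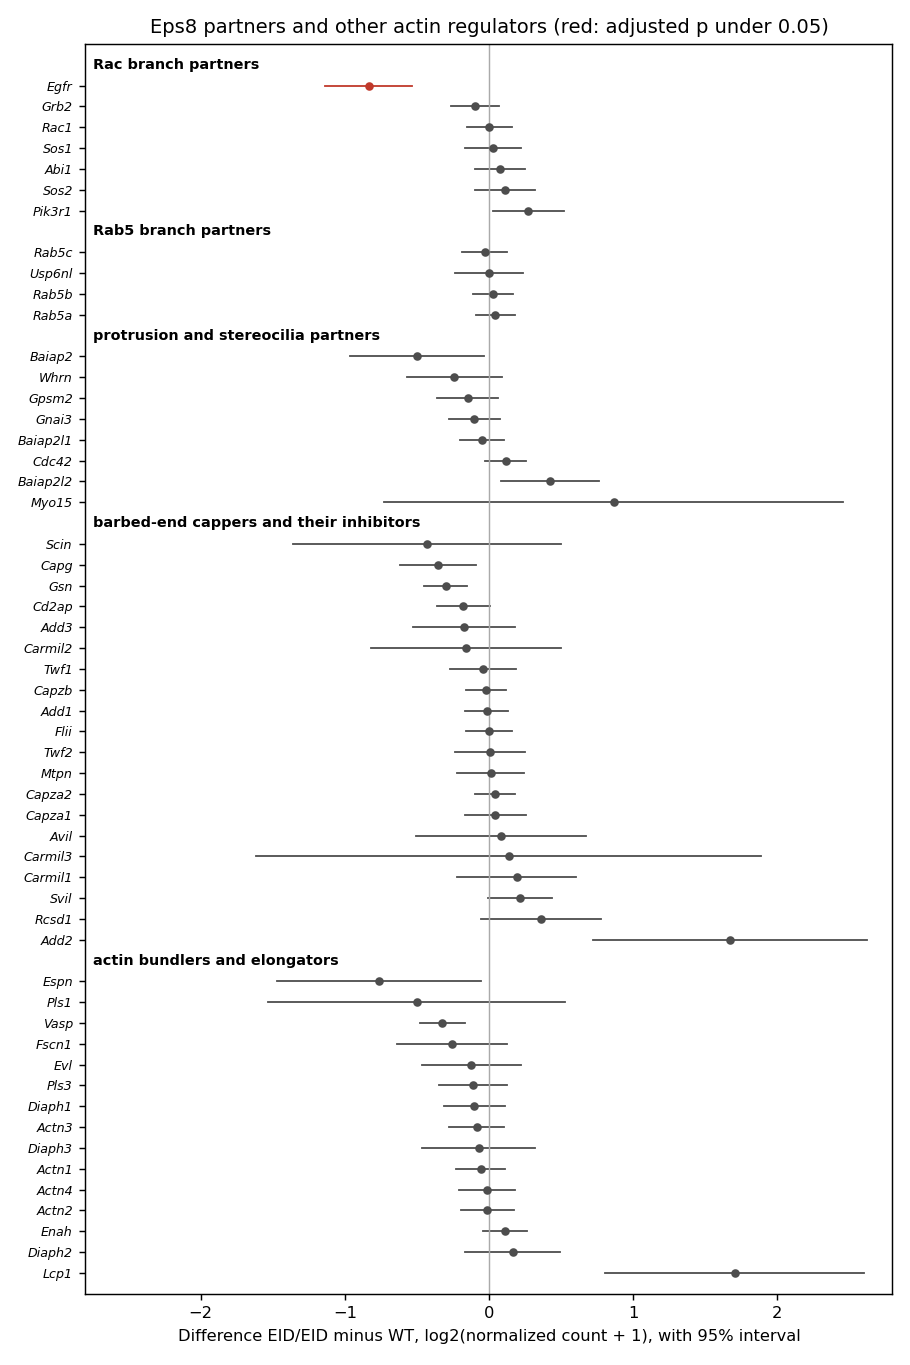
Log2 difference (Elmo2EID/EID minus WT, on normalized count + 1) with its 95% interval for the 54 tested genes of the 5 lists, red where limma's adjusted p was under 0.05. Egfr, at -0.84, is the only red point, and Add2 and Lcp1, at 1.67 and 1.71, are the farthest to the right.

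The genes around Eps8l1 were compared to see whether lower levels extended along the chromosome. Of 15 protein-coding genes within 250 kb, 10 were tested, and limma, edgeR and DESeq2 each called 0 of them, with 0 at an unadjusted p under 0.05. With 2.23% of all genes called by limma and 5.34% by DESeq2, a count of 0 among so few genes lies near the background. Ppp1r12c, a myosin phosphatase regulatory subunit gene 1.03 kb from Eps8l1, had 1049, 980.4 and 934.8 normalized counts in WT and 1005 and 1084 in Elmo2EID/EID samples (log2 difference 0.08). Rdh13, a retinol dehydrogenase gene 15.0 kb away on the other side, had 1154, 1067 and 1144 against 1282 and 1122 (log2 difference 0.10). The slow skeletal troponin T gene Tnnt1, 24.1 kb away, had 48051, 51842 and 55696 against 47369 and 43647 (log2 difference -0.19, adjusted p = 0.380 by limma). Its groups do not overlap, but the difference did not pass. The remaining 7, Tnni3, Dnaaf3, Syt5, Tmem86b, Ppp6r1, Hspbp1 and Brsk1, had log2 differences of 0.20, -0.51, -0.98, 0.26, 0.07, 0.05 and 0.37. The most negative, Syt5, a synaptotagmin gene, had no more than 23.6 normalized counts in any sample (standard error 0.48, adjusted p = 0.407 by limma). Within 500 kb of Eps8l1, limma called 0 of 27 tested genes, edgeR 0 and DESeq2 1 (Ssc5d), with 3 at an unadjusted p under 0.05. These 3 had lower means in Elmo2EID/EID samples, Cdc42ep5, Cox6b2 and Ssc5d, with log2 differences of -0.71, -1.02 and -0.68 and limma adjusted p-values of 0.133, 0.159 and 0.116, at 295.8, 271.3 and 445.3 kb from Eps8l1. The 27 genes had a median log2 difference of 0.01. Around all 4 members, limma called 0 of 52 tested neighbours within 250 kb, edgeR 0 and DESeq2 3, with 6 at an unadjusted p under 0.05, where 15.2% of all genes had one.

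**Figure D4:**
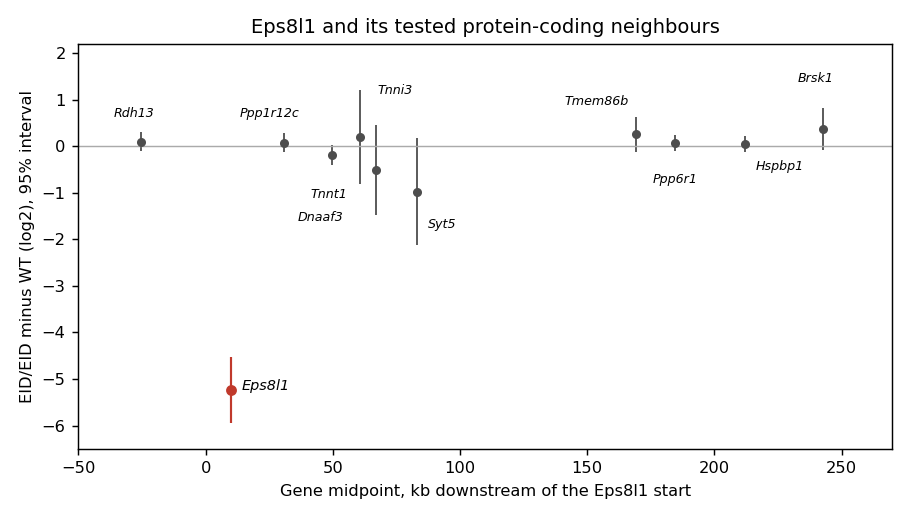
Log2 difference (Elmo2EID/EID minus WT) with its 95% interval for Eps8l1 (red) and its 10 tested protein-coding neighbours within 250 kb (grey), placed by the distance in kb of each gene's midpoint from the Eps8l1 start. Eps8l1 lies at -5.23, and the neighbours lie between -0.98 and 0.37. The Eps8l1 contrast chose the gene, so its interval shows the spread of the samples and is not a test.

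The 5 genes whose profile over the 5 samples was most like that of Eps8l1, out of 13768 whose mean reached 20 normalized counts, were Dpp6, Gpr20, Baalc, Rpl3-ps2 and Ndufs5. Likeness was the root mean square distance between log2 values after each gene's mean was removed, which was 0.51, 0.69, 0.74, 0.81 and 0.93, against a median of 2.59 over all genes compared. As the profile is mostly the difference that chose Eps8l1, this is a description of genes that were low in the same samples. Dpp6, which encodes an auxiliary subunit of potassium channels, had 490.4, 595.6 and 680.0 normalized counts in WT against 32.2 and 19.7 in Elmo2EID/EID samples. Within WT it was highest in replicate 3, where Eps8l1 was lowest. Gpr20, an orphan receptor gene, had 189.1, 190.7 and 134.3 against 9.84 and 10.8, with WT replicate 3 lowest as for Eps8l1. Baalc had 805.8, 710.0 and 800.5 against 21.5 and 51.1. Rpl3-ps2, a ribosomal protein pseudogene, had 100.7, 84.1 and 73.3 against 8.05 and 4.48. Ndufs5, a subunit of respiratory complex I, had 1353, 1307 and 1413 against 137.7 and 113.9. The genes lie on chromosomes 5, 15, 15, X and 4, none on chromosome 7 with Eps8l1. Counts of Rpl3-ps2 and of Ndufs5 are uncertain, since reads can be shared with the parent gene Rpl3 and with the Ndufs5 copy BC002163.

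**Figure D5:**
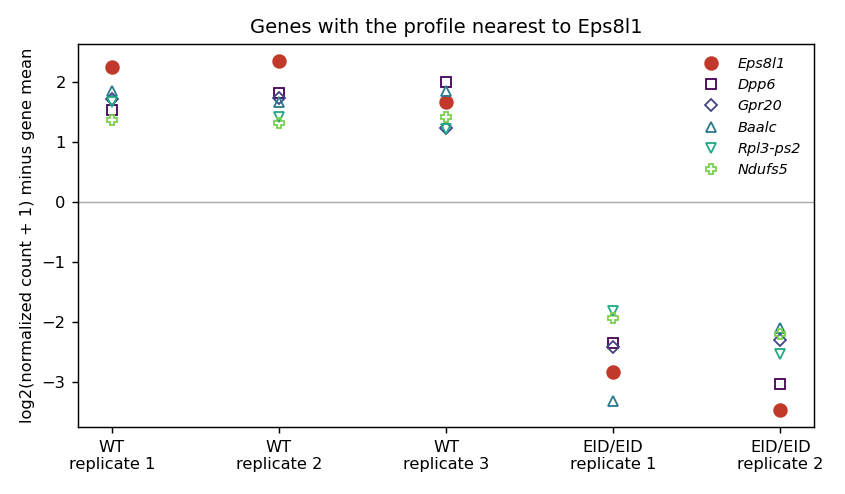
Log2(normalized count + 1) minus the gene's mean over the 5 samples, for Eps8l1 (filled red) and the 5 genes nearest to it (open symbols), by sample. All 6 genes lie above 0 in the 3 WT samples and below 0 in both Elmo2EID/EID samples, and Eps8l1 spans the range from 2.35 in WT replicate 2 to -3.46 in Elmo2EID/EID replicate 2.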

How the data were processed

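Reads were checked with FastQC 0.11.5 and aligned untrimmed to GRCm38 with STAR 2.5.1b. With featureCounts 1.4.6 the authors counted unique alignments by gene, reverse-stranded. What they deposited is a signal, each gene's reads over its sample's size factor (DESeq2 1.34.0). All positive values (100%) were whole multiples, within 0.01, of the worth of 1 read in their sample, which gave back the reads. Replicates differed by more than sampling noise (26.6 to 37.8 times the chi-square that noise alone gives). The main test used limma 3.58.1 (two-sided, linear fit, empirical Bayes, variance trend over the level, no replicate block) on log2(normalized count + 1). It covered 18156 genes, those reaching 5 normalized counts in 1 sample or more, and p-values were adjusted by Benjamini-Hochberg (threshold 0.05). On this scale the change of low genes is understated. EdgeR 4.0.16 (quasi-likelihood) and DESeq2 1.42.0 on the recovered reads, other pseudocounts, filters and scalings, a replicate block, and leaving out each sample were alternatives, as was a window of 500 kb for neighbours. GENCODE M21 matched 54165 of 54232 identifiers. Sequences were compared with Biopython 1.88. R 4.3.3 and Python 3.11.15 were used.

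The members and lists were chosen with earlier results of these data known. Genes named are the 4 members, list genes that passed, those with the most counts and the largest difference in each list, the tested neighbours of Eps8l1 within 250 kb, and the 5 nearest profiles. Other genes mentioned (Gsn, Vasp, Baiap2, the other Rac branch partners, Actn2, the neighbours of Eps8l2 and Eps8l3, those of Eps8l1 beyond 250 kb, the antisense genes and the markers) were added after their values were seen. Proteins were not analysed here.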

Additional observations from a re-analysis of the deposited data

How the results depend on the processing

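The Eps8l1 log2 difference, the contrast that chose the gene, ran from -5.55 to -4.65 over the 15 alternatives, the last with a pseudocount of 5. Leaving out samples gave -5.55 to -4.91. With groups so far apart no alternative could turn its sign, so these ranges only describe the size of the difference. That of Eps8 stayed between 0.29 and 0.91 and never passed. That of Eps8l2 never passed. It turned to -0.028 with the replicate block and, equally, without WT replicate 3. The block leaves that sample without a partner, so both fits gave the same estimate. It turned to -0.29 without Elmo2EID/EID replicate 2, and its range over samples left out was -0.29 to 0.35. Eps8l3, at 0 or 1 read, did not pass the filter and was given no test.

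The 404 genes called by limma became 155 with no filter, 144 without the trend, 224 with the replicate block, 969 with DESeq2, and 34 to 335 with a sample left out (134, 203 and 335 without WT replicates 1, 2 and 3, and 94 and 34 without Elmo2EID/EID replicates 1 and 2). Of the list genes, 1 was called, against 0 with no filter or without the trend, 2 with quantile normalization, 4 with DESeq2 and 0 to 1 with a sample left out. Neighbours called went from 0 to 3 of 52 tested with DESeq2 (Pnpla2, Gstm5 and Gstm1), which called 5.34% of all genes. With a window of 500 kb limma called 3 of 93 tested (Ifitm3, Slc6a17 and Psrc1), against 2.23% of all genes. Both counts lie near the background. With a WT sample left out the count within 250 kb was 0. The cause of these changes was not tested.

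Same-numbered samples did not deviate together (correlation of -0.238 across 13769 genes, which are not independent), and with the replicate block the calls of Eps8, Eps8l2, Egfr, the list genes and the neighbours within 250 kb did not change. Between WT and Elmo2EID/EID samples, 10 and 6 reads limit the Eps8l1 fold, and with 2 mutant samples the intervals of Eps8 and Eps8l2 stay wide.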
